A study of Homo sapiens with 6 samples.

Results

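The genes that build junctions between cells were followed in 3 oncosphere and 3 monolayer cultures of MDA231-LM2 cells. A total of 48 genes was taken by name, for cadherins, catenins, nectins, claudins and other proteins of tight junctions, polarity proteins, desmosomal proteins and connexins. Of these, 44 were measured among the 19775 genes on the arrays, each through the brightest of the probe sets that name it alone. In the platform annotation used, no probe set named CDH4, CDH13 or F11R, and the 4 probe sets for CTNND1 each named a second gene. These 4 genes therefore have no value here.

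MDA231-LM2 cells derive from MDA-MB-231, a human breast cancer line, by selection for metastasis to the lung. The oncospheres were floating clusters, kept for 4 days on plates with little adhesion in HuMEC, a mammary epithelial medium, to which 2% B27, 20 ng/ml EGF, 10 ng/ml bFGF and 5 µg/ml insulin were added. The monolayer cultures were attached to the dish in DMEM with 10% fetal bovine serum and were kept for 48 h after a change of medium. Both groups are thus 1 cell line, and attachment, medium, serum and time in culture differ together and cannot be told apart. RNA was measured on Affymetrix Human Genome U133 Plus 2.0 arrays, from 100 ng of total RNA each, and the labels call the 3 arrays of a group biological replicates.

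Epithelial cells are held together by a series of junctions. In adherens junctions, cadherins of neighbouring cells bind each other and are tied to actin by catenins, while nectins form a parallel pair of contacts. In desmosomes, desmogleins and desmocollins are linked through plakoglobin, plakophilins and desmoplakin to keratin filaments. Tight junctions seal the space between cells with claudins and occludin on ZO scaffolds, and gap junctions are channels of connexins. Cells of the MDA-MB-231 line are known as mesenchymal-like breast cancer cells that lack most E-cadherin.

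Between oncospheres and monolayer, 12 of the 44 measured junction genes were higher, 9 were lower and 23 did not pass the test (limma, adjusted p below 0.05). Higher genes made up 27.3% of them, against 17.3% of all genes, and lower genes 20.5%, against 17.5% of all genes. With a change of at least 1.5-fold asked as well, 9 were higher (20.5%, against 7.23% of all genes) and 6 were lower (13.6%, against 5.6%). The arrays of the groups did not overlap for 25 of the 44 (56.8%, against 46.9%), with oncospheres above in 13 and below in 12. The median log2 change of the 44 was −0.02, the same as the median over all genes of −0.02. The higher genes were led by the cadherins CDH3 and CDH11, the desmosomal genes DSP, JUP and DSC2 and the connexin GJB2. By the brightest probe sets, the largest decreases were those of CLDN11, PKP2, PKP4 and OCLN.

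**Figure D1:**
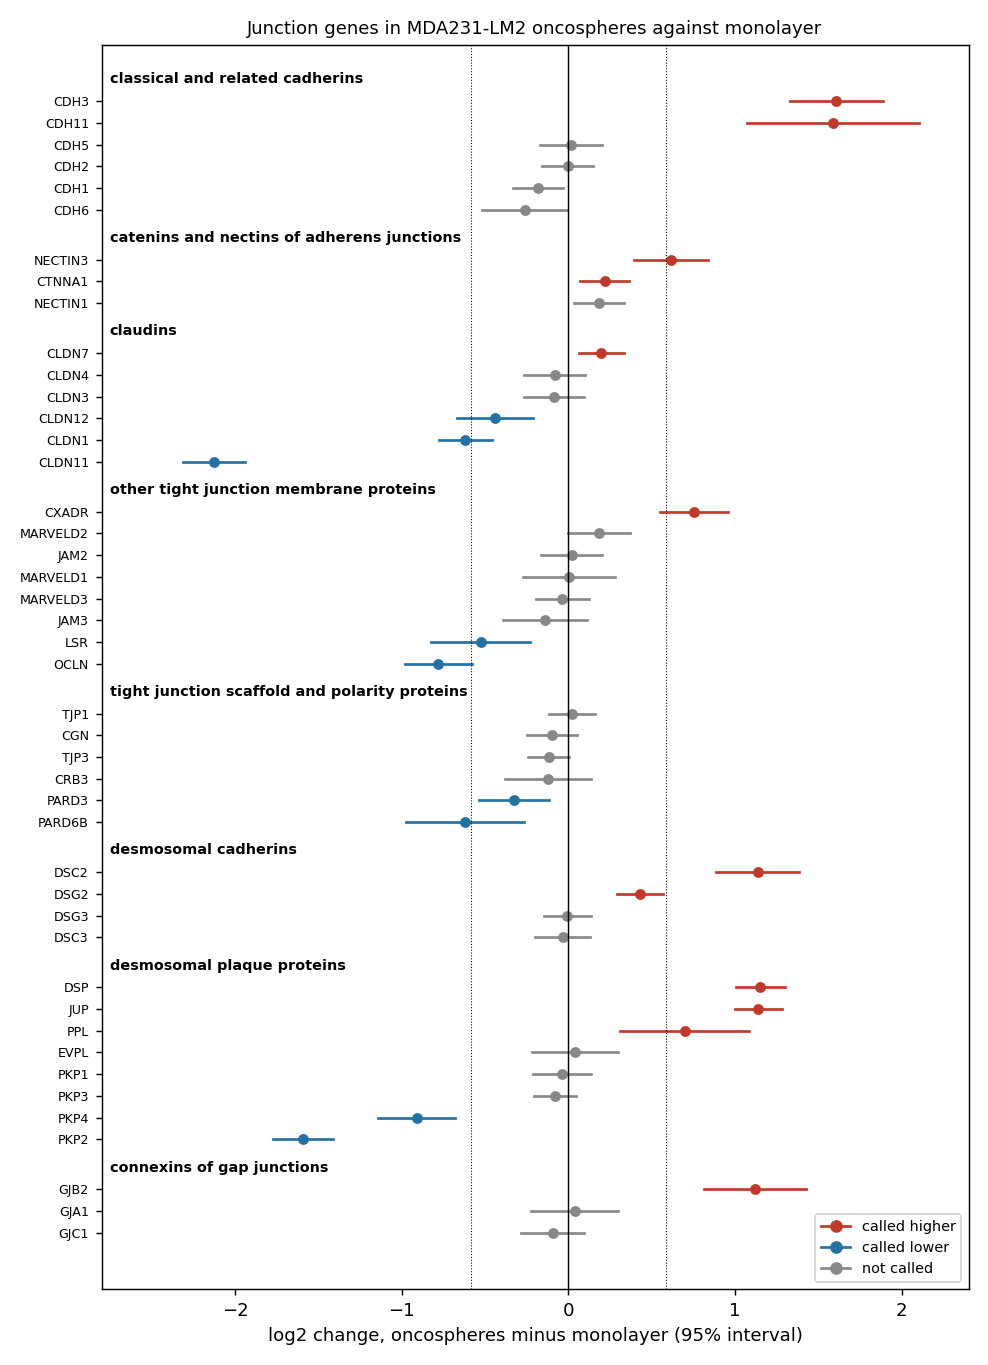
The log2 change of each of the 44 measured junction genes, oncospheres minus monolayer, is drawn as a point with its 95% interval, by junction type, and dotted lines mark 1.5-fold. Of the 12 higher calls 5 are desmosomal genes, and of the 9 lower calls 7 are tight junction or polarity genes. CLDN11 (−2.13) lies farthest from 0.

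Arrays of 1 group resembled one another, with Pearson's r across probe sets of 0.993 to 0.996, against 0.966 to 0.973 between the groups. Array medians lay between 112.6 and 114.1, and no value was below 48.02. In both groups 11 of the junction genes lay below the median probe set (113.4), and of these 0 were called. Oncosphere culture 2 was the one nearest to monolayer for 9 of the 15 genes called with at least 1.5-fold, and for 63.4% of the 2536 such genes on the whole array. Luminal markers were measured in both culture forms, with summed intensities of 10969 to 11583 in oncospheres and 14077 to 14736 in monolayer (1 of 8 markers higher, 3 lower). KRT18 (log2 −0.64), EPCAM (−0.34) and KRT8 (−0.32) were lower and KRT19 (0.77) was higher. KRT18 made up the largest part of the sums, with means of 5795 in oncospheres and 9044 in monolayer. Of the luminal markers, ERBB2, GATA3, ESR1 and PGR were not called, and ESR1 and PGR lay near the array median or below it. The mesenchymal list of VIM, CD44, FN1 and SPARC summed to 48953 to 52267 in oncospheres and 30265 to 31953 in monolayer. In it FN1 (log2 2.48) and SPARC (1.51) were higher, and VIM (0.05) and CD44 (0.32) were not called. Such sums weight bright probe sets most and are given as descriptions only.

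The cadherins of adherens junctions separated into a pair that rose about 3-fold and a remainder that was dim in both culture forms. Of 6 measured, 2 were higher (33.3%, against 17.3% of all genes) and 0 were lower (against 17.5%). CDH3, P-cadherin, a classical cadherin of basal mammary epithelium, had intensities of 352, 306 and 367 in oncospheres, against 94.1, 115 and 129.6 in monolayer. Every oncosphere culture thus exceeded every monolayer culture by more than the spread within either group (342 ± 31.7 in oncospheres and 112.8 ± 17.8 in monolayer, SD, n = 3 each). Its change was 1.61 on the log2 scale (SE 0.12, 95% interval 1.33 to 1.89, adjusted p = 4.55e-05), or 3.05-fold. Of the 5 basal markers listed, 3 were measured, and KRT17 and TP63 had no value. KRT5 was higher (log2 0.72, adjusted p = 7.32e-05), EGFR was lower (−0.78, adjusted p = 0.0066) and KRT14 was not called. The summed intensity of these 3 was 818 to 1094 in oncospheres, against 1204 to 1495 in monolayer. EGFR made up most of it, with means of 689 in oncospheres and 1171 in monolayer. The part of the basal markers in the change of CDH3 was not tested. The monolayer mean of CDH3 was below the median probe set, so the fold depends on the background, and with each array's 5th percentile subtracted the log2 change was 2.58.

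CDH11, a cadherin best known from mesenchymal cells and osteoblasts, had intensities of 457, 245 and 454 in oncospheres, against 131, 109.6 and 130.1 in monolayer. The groups did not overlap, but oncosphere culture 2 was far below the other oncosphere cultures, and the spread was wide (385 ± 121 in oncospheres and 124 ± 12.2 in monolayer). The log2 change was 1.59 (SE 0.22, 95% interval 1.07 to 2.11, adjusted p = 0.00103). CDH11 has 4 probe sets, of which 3 were higher and the dimmest was not called. The size of the change depended on the probe set, with a log2 change of 0.76 for the mean of all 4 and of 0.83 for the brightest one whose name does not end in _x_at or _s_at, a mark of probes that may match several transcripts. Markers of fibroblasts and smooth muscle summed to 588 to 665 in oncospheres and 481 to 507 in monolayer: ACTA2 was higher (log2 1.01), while PDGFRA, PDGFRB and DCN were not called, and the part of such a change in CDH11 was not tested. In bulk RNA, fewer cells with a transcript and less of it per cell cannot be told apart.

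E-cadherin and N-cadherin, the pair whose exchange marks an epithelial-mesenchymal transition, both lay below the median probe set in both groups. CDH1 had intensities of 66.3, 74.5 and 71.1 in oncospheres, against 76.9, 81.5 and 82.2 in monolayer. All 3 oncosphere cultures were below the monolayer cultures, but by a log2 change of −0.18 (95% interval −0.33 to −0.03) that did not pass the adjustment (adjusted p = 0.0713). Without oncosphere culture 2 it did (−0.22, adjusted p = 0.0461). The second probe set of CDH1 was not called (0.02, adjusted p = 0.853). The mean of its probe sets gave −0.08 (adjusted p = 0.315), and background subtraction gave −0.06 (adjusted p = 0.29). CDH2 had intensities of 109, 112.8 and 102 in oncospheres, against 104, 106 and 115 in monolayer, and the groups overlapped. The log2 change had an interval of −0.16 to 0.15 (adjusted p = 0.979). CDH5, the cadherin of endothelium, and CDH6 were not called either (log2 0.01, adjusted p = 0.926, and −0.26, adjusted p = 0.127). CDH6 was called lower without oncosphere culture 1 (−0.38, adjusted p = 0.0145). None of its other probe sets was called, and the mean of all 6 gave −0.05 (adjusted p = 0.506). Among endothelial markers PECAM1 was higher (log2 1.58) and KDR lower (−0.50), while VWF and TEK were not called.

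The genes CDH3 and CDH1 are direct neighbours on chromosome 16 in the gene order of GRCh38.p14, and so are CDH11 and CDH5. In each of these pairs the first gene was higher in oncospheres and the second was not called. A test of the difference within a pair was not run.

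Among the catenins and nectins, 2 of 3 measured genes were higher (66.7%, against 17.3% of all genes) and 0 were lower (against 17.5%). CTNNA1, α-catenin, which ties the cadherin complex to actin, had intensities of 6148, 5934 and 6132 in oncospheres, against 4867, 5293 and 5515 in monolayer. The groups did not overlap, yet the change was small (log2 0.22, SE 0.06, adjusted p = 0.0353). The call was lost without monolayer culture 1 or 2 or any 1 of the oncosphere cultures (adjusted p of 0.0509 to 0.108). NECTIN3, an immunoglobulin-like adhesion molecule, had intensities of 1421, 1140.2 and 1305 in oncospheres, against 776, 827 and 919 in monolayer. It was 1.53-fold higher, with no overlap (log2 0.61, SE 0.10, adjusted p = 0.00183), while its second probe set was not called (0.27, adjusted p = 0.104). NECTIN1 had 198 to 214 in oncospheres, against 170.1 to 191 in monolayer, and was not called (log2 0.18, adjusted p = 0.0731).

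**Figure D2:**
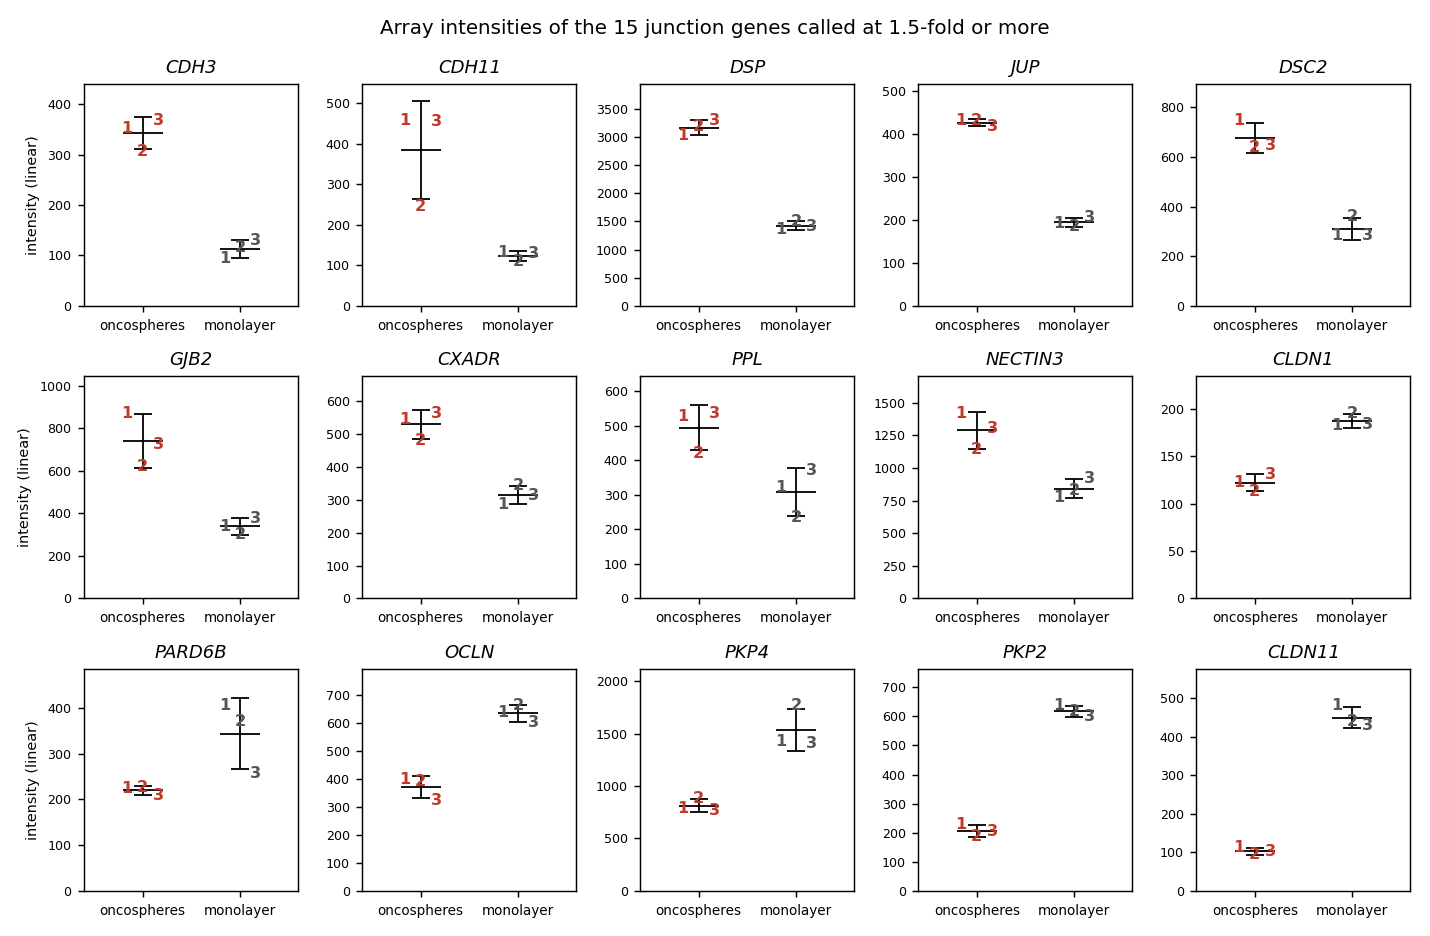
Linear intensities (y axis, from 0) are shown for the 15 junction genes called with at least 1.5-fold, with oncospheres on the left and monolayer on the right; numerals are the replicate numbers, and bars give the mean and SD (n = 3 each). No gene has overlapping groups, and oncosphere culture 2 is the low one for CDH11 (245, against 457 and 454).

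Among desmosomal genes, DSP, JUP, DSC2, DSG2 and PPL were higher in oncospheres, while a pair of plakophilins was lower. Of the 12 desmosomal genes, 5 were higher (41.7%, against 17.3% of all genes), 2 were lower (16.7%, against 17.5%) and 5 were not called, with a median log2 change of 0.02. DSP, desmoplakin, which binds keratin filaments to the desmosome, had intensities of 3018, 3189 and 3287 in oncospheres, against 1361, 1506 and 1406 in monolayer. All 3 oncosphere cultures had more than every monolayer culture, by 2.22-fold on average (log2 1.15, SE 0.06, adjusted p = 1.15e-05). JUP, plakoglobin, a catenin shared by desmosomes and adherens junctions, had intensities of 432, 432 and 419 in oncospheres, against 192, 185 and 206 in monolayer. The spread within groups was small (427 ± 7.29 in oncospheres and 194 ± 10.8 in monolayer), and the change was 2.20-fold (log2 1.14, SE 0.06, adjusted p = 9.64e-06). Its only probe set carries the _s_at mark.

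The desmosomal cadherins present in simple epithelia were higher, and those of stratified epithelia were dim and not called. DSC2, desmocollin 2, had intensities of 746, 637 and 645 in oncospheres, against 284, 359 and 283 in monolayer. The groups were well apart (2.20-fold; log2 1.14, SE 0.11, adjusted p = 1.35e-04). Of its 3 other probe sets, 2 were higher by less (0.62 and 0.32) and 1 was not called, and the mean of all 4 gave 0.54. DSG2, desmoglein 2, had intensities of 2750.2, 2871 and 2598 in oncospheres, against 1984, 2029 and 2077 in monolayer. The increase of 1.35-fold exceeded the spread (log2 0.43, SE 0.06, adjusted p = 9.86e-04). DSC3 had 65.4 to 70.8 in oncospheres and 65.7 to 76.2 in monolayer, and DSG3 82.9 to 92.0 in oncospheres and 85.0 to 89.8 in monolayer (log2 −0.03, adjusted p = 0.791, and −0.01, adjusted p = 0.967). Those ranges overlap. In the desmosomal cadherin cluster of chromosome 18, DSC2 lies next to DSC3 and DSG2 next to DSG3, so that a called gene stood beside an uncalled one in both cases. DSC1, the neighbour of DSC2 on the other side, was not called (log2 −0.09).

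In the plaque, the plakophilins did not move as DSP and JUP did. PKP2, plakophilin 2, an armadillo protein that recruits desmoplakin to the membrane, had intensities of 227, 187 and 203 in oncospheres, against 637, 616 and 600.5 in monolayer. It was 3.01-fold lower in oncospheres, with no overlap (log2 −1.59, SE 0.08, 95% interval −1.77 to −1.41, adjusted p = 6.39e-06). A second probe set was lower too (−0.72, adjusted p = 3.92e-04). PKP4, a relative of p120 catenin found at adherens junctions as well as desmosomes, had intensities of 789, 882 and 770.1 in oncospheres, against 1424, 1768 and 1411 in monolayer. It was 1.88-fold lower, again with no overlap (log2 −0.91, SE 0.10, adjusted p = 2.87e-04), and of its 4 other probe sets 3 were lower and 1 was not called. PKP1 and PKP3 were not called (log2 −0.04, adjusted p = 0.78, and −0.08, adjusted p = 0.365), although PKP3 was below monolayer in every oncosphere culture (258 to 274, against 275 to 281).

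PPL, periplakin, a plakin of the cell cortex, had intensities of 527, 419 and 537 in oncospheres, against 321, 234 and 369.9 in monolayer. The groups did not overlap, but the replicates spread widely (log2 0.70, SE 0.17, adjusted p = 0.015). The call rested on single cultures, since the adjusted p was 0.0534 without oncosphere culture 1 and 0.0529 without oncosphere culture 3. The related plakin gene EVPL, envoplakin, was not called (log2 0.04, adjusted p = 0.847), with an interval of −0.22 to 0.30.

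In the tight junction and polarity genes the decreases outnumbered the increases, with 7 of the 20 measured lower (35%, against 17.5% of all genes), 2 higher (10%, against 17.3%) and 11 not called. Of the 7 lower calls, CLDN1, CLDN11 and OCLN held in every alternative, and those of CLDN12, LSR, PARD3 and PARD6B were lost at an adjusted p below 0.01 and with background subtraction. Of the 2 higher calls, that of CXADR held and that of CLDN7 did not. Their median log2 change was −0.11. CLDN11, a claudin best known from myelin and the testis, had the largest change of all junction genes by the brightest probe set, but came 6th by the mean of all probe sets of each gene, after CDH3, PKP2, DSP, JUP and GJB2. Its intensities were 112, 94.3 and 103 in oncospheres, against 480.2, 440.4 and 428 in monolayer. In oncospheres it was 4.36-fold lower (log2 −2.13, SE 0.08, 95% interval −2.31 to −1.94, adjusted p = 2.41e-06) and below the median probe set. With the 5th percentile of each array subtracted the log2 change was −3.33. The 2 other, dimmer probe sets for CLDN11 were not called (−0.15, adjusted p = 0.176, and −0.03, adjusted p = 0.729), and the mean of all 3 gave −0.77.

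Of the other claudins, CLDN1 and CLDN12 were lower, CLDN7 was slightly higher, and CLDN3 and CLDN4 did not pass the test. CLDN1, a claudin of epithelial barriers such as the epidermis, had intensities of 123, 113.4 and 131 in oncospheres, against 183, 196 and 183 in monolayer. The groups did not overlap (1.53-fold lower; log2 −0.62, SE 0.07, adjusted p = 3.36e-04), and the second probe set gave a log2 change of −0.55. Background subtraction took the log2 change to −1.09. CLDN12 had intensities of 916, 1158 and 1153 in oncospheres, against 1373, 1518 and 1468 in monolayer, with oncosphere culture 1 the lowest (log2 −0.44, SE 0.10, adjusted p = 0.0105). CLDN7 had 429 to 464 in oncospheres, against 379 to 402 in monolayer (log2 0.20, SE 0.06, adjusted p = 0.0374). Its call was lost without any 1 of the 6 cultures other than oncosphere culture 2 (adjusted p of 0.0534 to 0.128). CLDN3 and CLDN4, neighbours on chromosome 7, overlapped between groups (log2 −0.09, adjusted p = 0.485, and −0.08, adjusted p = 0.516).

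Occludin and the coxsackievirus and adenovirus receptor, both membrane proteins of tight junctions, moved in opposite directions. OCLN had intensities of 397, 391.7 and 325 in oncospheres, against 638, 663 and 605 in monolayer. It was 1.72-fold lower in oncospheres (log2 −0.78, SE 0.09, adjusted p = 3.22e-04); of its 3 other probe sets 2 were lower and 1 was not called, and the mean of all 4 gave −0.40. CXADR had intensities of 545, 479 and 564 in oncospheres, against 286, 342 and 314 in monolayer. It was 1.69-fold higher (log2 0.75, SE 0.09, adjusted p = 4.14e-04), and all 4 of its probe sets were higher. LSR, angulin 1, which marks contacts of 3 cells, had 212 to 288 in oncospheres, against 320.2 to 411 in monolayer (log2 −0.52, SE 0.13, adjusted p = 0.0165). It was not called without monolayer culture 2 (adjusted p = 0.0527) or 3 (adjusted p = 0.0605).

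The 5 remaining membrane genes were not called. MARVELD2, tricellulin, the direct neighbour of OCLN on chromosome 5, had 286 to 310.3 in oncospheres and 244 to 296 in monolayer (log2 0.18, adjusted p = 0.145). It was called higher without monolayer culture 3 (0.26, adjusted p = 0.037). Its second probe set was not called (−0.15, adjusted p = 0.148), and the mean of its probe sets gave 0.015 (adjusted p = 0.895). MARVELD1 and MARVELD3 had log2 changes of 0.003 and −0.04 (adjusted p of 0.99 and 0.756). The junctional adhesion molecules JAM2 and JAM3 had log2 changes of 0.02 and −0.14 (adjusted p of 0.899 and 0.423). In all 5 genes the groups overlapped.

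In the cytoplasmic layer of tight junctions and in the polarity complexes, 2 of 6 genes were lower (33.3%, against 17.5% of all genes) and 0 were higher (against 17.3%), and both lower genes lost their call in some of the alternatives. TJP1, the ZO-1 scaffold, had intensities of 1663, 1538 and 1572 in oncospheres, against 1551, 1522 and 1633 in monolayer. The groups overlapped, and the interval of the log2 change, −0.12 to 0.16, left out a change of 1.5-fold (adjusted p = 0.855). Its second, dimmer probe set was lower (−0.24, adjusted p = 0.0229). PARD6B, an adaptor of the PAR polarity complex, had intensities of 224, 226 and 209 in oncospheres, against 405, 370.0 and 256 in monolayer. Here it was the monolayer that spread, with culture 3 close to the oncospheres (log2 −0.62, SE 0.15, adjusted p = 0.0172). The call was lost without monolayer culture 1 (adjusted p = 0.0556), monolayer culture 2 (0.0649) or oncosphere culture 3 (0.0562), while both other probe sets were lower (−0.54 and −0.31).

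PARD3, the scaffold of the same complex, had 627 to 722 in oncospheres, against 739 to 896 in monolayer (log2 −0.33, SE 0.09, adjusted p = 0.0274). Its direction is uncertain, since 2 further probe sets were lower and 1 was higher (0.43, adjusted p = 0.00708), and the mean of all 4 was not called (−0.13, adjusted p = 0.187). The call was also lost without monolayer culture 1 or 3 or oncosphere culture 1 or 2 (adjusted p of 0.08 to 0.0951). TJP3, CGN and CRB3, for ZO-3, cingulin and a Crumbs protein, were not called (log2 −0.12, −0.10 and −0.12, with adjusted p of 0.155, 0.338 and 0.501).

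Of the connexins, GJB2 rose and GJA1 and GJC1 did not pass the test. GJB2, connexin 26, had intensities of 871, 620.2 and 725 in oncospheres, against 338, 299 and 378 in monolayer. The groups were apart, with the lowest oncosphere culture well above the highest monolayer culture (2.17-fold; log2 1.12, SE 0.13, adjusted p = 4.05e-04). GJA1, connexin 43, the most widespread connexin, had intensities of 1002, 1245 and 938 in oncospheres, against 964, 1131 and 991 in monolayer. These overlapped, with an interval of −0.22 to 0.30 on the log2 scale (adjusted p = 0.854). GJC1, connexin 45, had 80.2 to 87.2 in oncospheres and 82.8 to 99.8 in monolayer (log2 −0.09, adjusted p = 0.477). On chromosome 13, GJB2 lies between GJA3, which was higher as well (log2 0.75), and GJB6, which was not called (0.04).

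**Figure D3:**
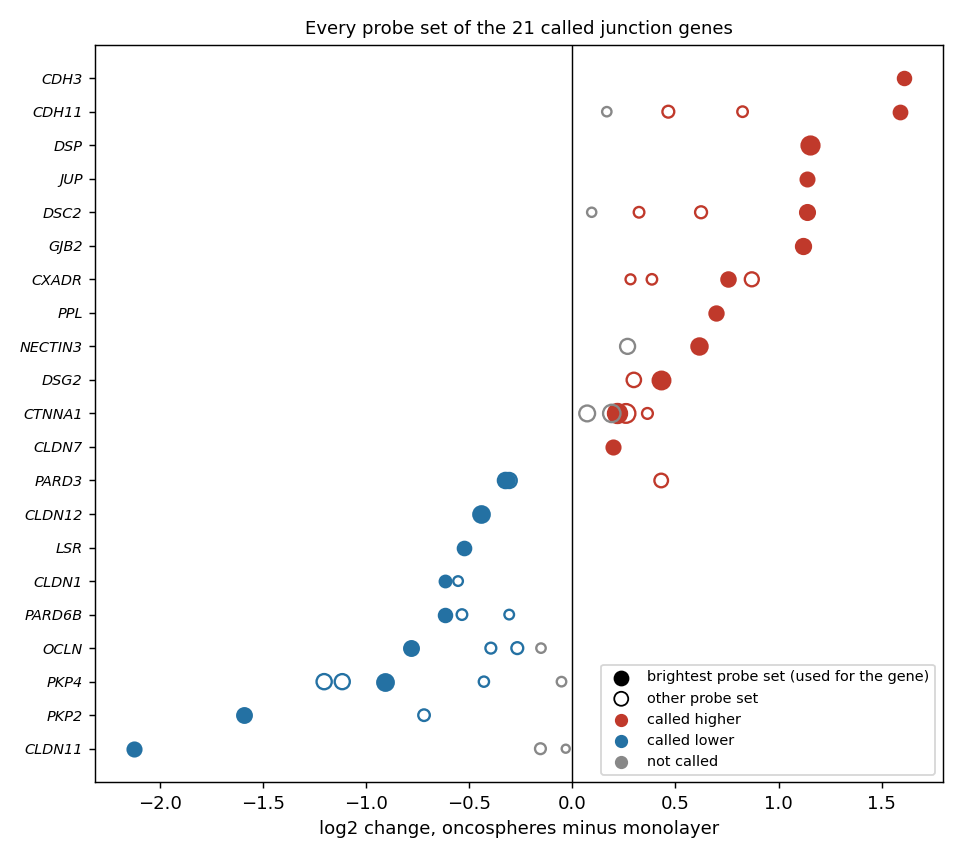
Each row is 1 of the 21 called junction genes, and each circle 1 of its probe sets by log2 change, oncospheres minus monolayer (x axis), with filled circles for the brightest one, larger circles for brighter ones and colour for the call. Of the 31 other probe sets, 21 have the same call, 9 are not called and 1, for PARD3, is called in the opposite direction.

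How far a gene's change rests on its probe set was counted over all 105 probe sets of the 44 genes. For 12 genes there was a single one. Among the called genes, 31 further probe sets were available, and 21 of them had the same call, 9 were not called and 1 was called the other way (PARD3). Among the uncalled genes, 1 of 30 further probe sets was called, that of TJP1. Over the alternatives of processing and the removal of single arrays, 14 of the 21 called genes kept their call wherever they had a value. The 7 that lost it under at least 1 of them were CTNNA1, CLDN7, CLDN12, LSR, PARD3, PARD6B and PPL.

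**Figure D4:**
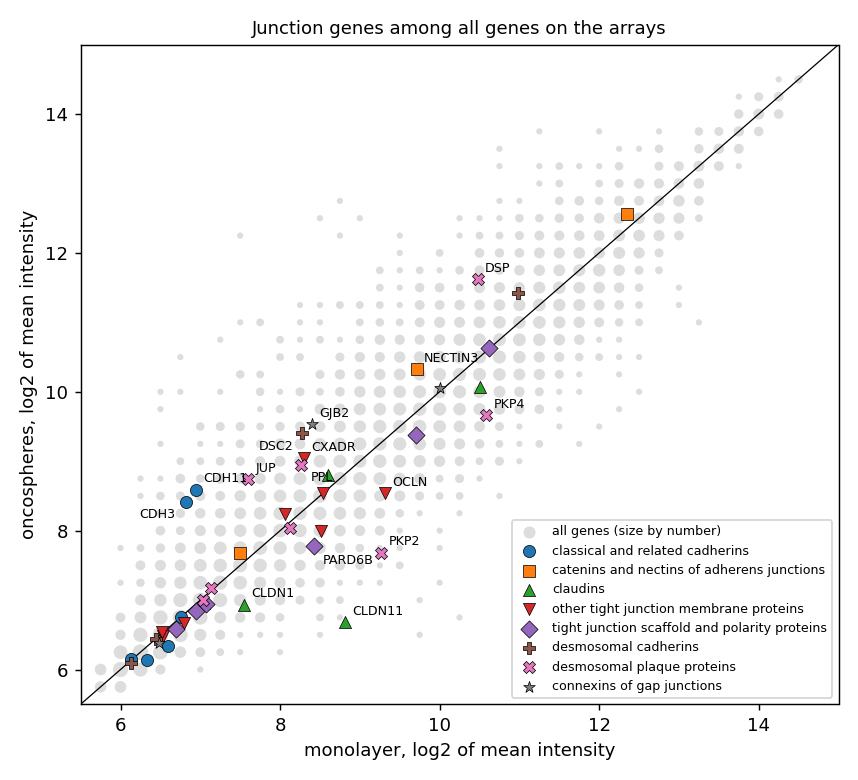
Mean intensity on the log2 scale is plotted for oncospheres (y axis) against monolayer (x axis), with all genes as grey dots sized by their number, junction genes as coloured symbols by type and the line of equality. The 11 junction genes below the median probe set in both groups lie along the line at the lower left, while CDH3 and CLDN11, below the median probe set in 1 group only, lie well off it.

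Other genes of the same junctions were taken by family. Of 94 such genes 81 were measured, and 6 were higher (7.41%, against 17.3% of all genes), 13 were lower (16%, against 17.5%) and 62 were not called, with a median log2 change of −0.04. For 28 further cadherins and adherens junction partners the counts were 2 higher (7.14%) and 6 lower (21.4%), the second near the share of 17.5% over all genes. LIM proteins of the cadherin-actin link led the decreases: AJUBA had intensities of 1311, 1249 and 1294 in oncospheres, against 4947, 4796 and 4856 in monolayer (3.79-fold lower; log2 −1.92, adjusted p = 1.18e-06), and LIMA1 had a log2 change of −1.71. CTNNAL1, a relative of α-catenin, was lower too (−1.22), while AFDN, afadin, which binds nectins to actin, was higher (0.61). CDH18, a type II cadherin named after its values were seen, was lower (88.1 to 100.5 in oncospheres, against 138 to 148 in monolayer; 1.53-fold lower, log2 −0.61, adjusted p = 2.87e-04). The second higher gene of this list, also named after its values were seen, was CTNNB1, β-catenin. Its intensities were 7610.1, 7299 and 7529 in oncospheres, against 4757, 5380.2 and 4819 in monolayer, without overlap (1.502-fold; log2 0.59, adjusted p = 3.17e-04).

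Among 19 further claudins and membrane proteins of tight junctions, 0 were higher (against 17.3% of all genes) and 3 were lower (15.8%, near 17.5% of all genes). The lower ones were ESAM, an adhesion molecule known from endothelium (log2 −1.21), ILDR2, a relative of angulin (−0.83), and CLDN23 (−0.57). Of 17 further scaffold and polarity genes 4 were lower (23.5%, against 17.5% of all genes): PALS1 (−0.56), DLG1 (−0.50) and the atypical protein kinases C PRKCZ (−0.34) and PRKCI (−0.26). The single higher one (5.88%, against 17.3% of all genes), CRB2 (0.25), named after its values were seen, was dim in both groups. Desmosomes added PERP, a membrane protein of desmosomes, which was higher (0.66) among 4 genes (25%, against 17.3% of all genes), and 3 were not called. Among 13 other connexins and pannexins, 2 were higher (15.4%, near 17.3% of all genes) and 0 were lower (against 17.5%). PANX1, a channel protein, was higher (log2 0.86), with intensities of 2195, 2075 and 2224 in oncospheres, against 1140.3, 1203 and 1238 in monolayer. GJA3 was the other higher gene of that list.

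The promoters of several of these genes were read for the letters CAGGTG and their reverse complement CACCTG, an E-box known in the CDH1 promoter as a binding site of the repressors SNAI1 and ZEB1. Promoter windows were available for 28 of the 48 genes, as the 250 bases before the annotated start in RefSeq for GRCh38.p14. CDH1, CDH3, CDH5, CDH6, CDH11, CDH13, CTNND1, NECTIN1, MARVELD3, F11R, JAM2, JAM3, CXADR, PARD3, PARD6B, PKP2, PKP3, PPL, EVPL and GJC1 were not among them. The E-box stood in 7 of the 28 (25.0%), against 4793 of 27326 windows of all genes (17.5%). The 28 windows were richer in G and C (median 66.4%, against 57.6% over all windows), and the shares were not adjusted for this. By call it stood in 3 of 8 windows of higher genes, 1 of 6 of lower genes and 2 of 13 of genes not called, and in that of CDH4, which was not measured. Other desmosomal genes had windows with 0 E-boxes, namely JUP (higher), PKP4 (lower) and DSC3, DSG3 and PKP1 (not called). The 3 higher genes with the motif, DSP, DSC2 and DSG2, are all desmosomal, and the lower one is OCLN. Those 4 windows are shown here as the carriers of the motif among called genes, with that of CLDN11 as the gene with the largest change by its brightest probe set, 5′ to 3′ on the strand of the gene, with E-boxes in capitals. They cover chr6:7541421-7541670 (DSP, plus strand), chr18:31102422-31102671 (DSC2, minus), chr18:31497927-31498176 (DSG2, plus), chr5:69492297-69492546 (OCLN, plus) and chr3:170418618-170418867 (CLDN11, plus).
DSP: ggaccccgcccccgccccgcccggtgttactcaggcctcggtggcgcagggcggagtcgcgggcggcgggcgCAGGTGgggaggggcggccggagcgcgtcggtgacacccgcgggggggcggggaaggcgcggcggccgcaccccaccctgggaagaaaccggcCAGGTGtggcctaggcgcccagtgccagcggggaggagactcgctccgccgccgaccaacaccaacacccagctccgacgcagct
DSC2: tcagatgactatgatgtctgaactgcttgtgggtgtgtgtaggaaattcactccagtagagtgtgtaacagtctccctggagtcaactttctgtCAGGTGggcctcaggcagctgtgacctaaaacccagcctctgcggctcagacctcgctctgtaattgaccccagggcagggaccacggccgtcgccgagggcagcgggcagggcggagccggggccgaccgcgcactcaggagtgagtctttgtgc
DSG2: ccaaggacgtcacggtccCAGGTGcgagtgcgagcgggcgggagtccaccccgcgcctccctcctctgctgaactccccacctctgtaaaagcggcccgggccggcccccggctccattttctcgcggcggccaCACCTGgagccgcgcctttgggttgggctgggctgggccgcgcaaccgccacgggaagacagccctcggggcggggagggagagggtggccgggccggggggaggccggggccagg
OCLN: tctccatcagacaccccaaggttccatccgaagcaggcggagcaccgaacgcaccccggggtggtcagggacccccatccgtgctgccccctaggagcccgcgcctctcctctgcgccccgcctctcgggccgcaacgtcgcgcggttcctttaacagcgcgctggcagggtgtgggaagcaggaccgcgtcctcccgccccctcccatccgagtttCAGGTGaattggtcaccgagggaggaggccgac
CLDN11: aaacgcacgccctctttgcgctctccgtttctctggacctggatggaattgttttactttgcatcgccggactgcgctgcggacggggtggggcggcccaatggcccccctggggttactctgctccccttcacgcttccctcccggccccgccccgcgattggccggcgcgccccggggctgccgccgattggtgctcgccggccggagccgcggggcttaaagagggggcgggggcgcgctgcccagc

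Counted from the start of transcription, the E-boxes began at −178 and −85 in DSP, at −156 in DSC2, at −232 and −116 in DSG2 and at −33 in OCLN, and the CLDN11 window held 0. The window of DSP overlaps DSP-AS1 and that of DSC2 overlaps DSCAS. Of the genes not called, the window of TJP1 held 1 E-box, at −88, and that of CRB3 held 5. The motif thus stood in windows of genes that were higher, lower and not called. A match of letters is a description of the sequence and says nothing about binding in these cells.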

How the data were processed

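The deposited values were linear intensities per probe set of Affymetrix Human Genome U133 Plus 2.0 arrays, normalized by the authors with robust multi-array averaging. The submitters' processing notes name affy; its version is not given in the sources used here. Log2 was taken first. It is not known if the values were rescaled or floored, so folds of dim probe sets are uncertain, and levels are not comparable between probe sets.

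After 62 control probe sets were left out, 54613 were tested in oncospheres against monolayer with limma 3.58.1 (lmFit and eBayes, R 4.3.3), 3 arrays each, two-sided, with Benjamini-Hochberg adjustment over all of them and calls at an adjusted p below 0.05. Since all cultures are of 1 cell line, p-values reflect only the variation among them. The platform annotation gave 41091 probe sets 1 symbol, 1801 several and 11721 none. A gene was represented by its single-symbol probe set with the highest mean over the 6 arrays. The number of arrays limits the precision.

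The junction genes, the related lists, the tests and the alternatives were chosen with earlier results of these data known. All 48 genes are accounted for. Values of all 6 arrays are given for those called with at least 1.5-fold, for the brightest of each junction type and for CDH1 and CDH2, and of each related list up to 4 called genes with the largest change are named. Promoter windows came from RefSeq for GRCh38.p14. Protein sequences were not used here. Alternatives were other normalizations (median centring, cyclic loess, quantile), a robust prior with an intensity trend, array weights, a filter on dim probe sets, a fit blocked by replicate number, averages of a gene's probe sets, a table without _x_at and _s_at probe sets, adjustment restricted to representative probe sets, an adjusted p below 0.01, each array's 5th percentile subtracted with values under 16 set to 16, and each array left out.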

Additional observations from a re-analysis of the deposited data

How the results depend on the processing

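Over 773 values of the 44 junction genes under the alternatives, 728 kept their call or stayed uncalled. Of the others, 39 lost and 6 gained a call, and 0 reversed a called direction. The sign of uncalled genes was not counted, and it changed in some of the 728. CDH2, for example, went from −0.0035 to 0.0397 without monolayer replicate 3, and NECTIN1 from 0.1823 to −0.0442 by the mean of its probe sets. Where the cause is not plain from the setting, it was not tested. The number of lower junction genes was 5 of 44 at an adjusted p below 0.01, against 9. Over all 19775 genes the number lower fell as well, to 2371, against 3464. The median log2 change of the junction genes was 0.0203 with dim probe sets left out (33 genes) and 0.009 without _x_at and _s_at probe sets (36 genes, among which CDH1, CGN, CLDN3, JUP, LSR, PARD3, PKP2 and PKP3 have no value), against −0.0197. With single arrays left out it ranged from −0.0581, without monolayer replicate 3, to −0.0057, and the junction genes called higher ranged from 9 to 12 and lower from 7 to 9. Over all 19775 genes the calls then ranged from 2902 to 3439 higher and from 2830 to 3448 lower. The main fit had 3430 higher and 3464 lower. With the replicate number as a block, 10 junction genes were higher and 10 lower, and over all genes 3410 were higher and 3396 lower. Same-numbered arrays deviated together only weakly (correlations of 0.0685, 0.0822 and 0.089), although each array correlated best with its own number, and the labels name no shared day or batch. The block ended the calls of CTNNA1 (adjusted p = 0.0552) and CLDN7 (0.0577) and made one for CDH6 (0.0321). With background subtraction CLDN12 (adjusted p = 0.0566), LSR (0.0907), PARD3 (0.0897), PARD6B (0.0901) and PPL (0.098) lost their calls and TJP3 gained one (0.0417). CLDN7 was also lost under repeated quantile normalization (0.0541) and with an intensity trend and robust prior (0.0618), and PARD3 under cyclic loess (0.059). Array weights made a call for CDH1 (0.0449).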
